A study of Mus musculus with 12 samples.

Results

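The microglia and pan-macrophage genes described here are 8 named genes of the mononuclear phagocyte lineage, Siglech, Trem2, Tyrobp, Csf1r, Adgre1, Ly86, Laptm5 and Lcp1, out of 10749 genes with values in RNA-seq of sorted mouse dentate gyrus cells. They were chosen by name, with their levels in these same libraries already known, so their values are given as a description and without a test. All 8 were found by gene symbol, and all 8 passed the filter on low values that left 8360 genes for the fits. Every animal carried the LPA1-GFP reporter (Tg(Lpar1-EGFP)GX193Gsat), a transgene in which regulatory sequence of Lpar1, the gene of a lysophosphatidic acid receptor, drives green fluorescent protein; the line came from an FVB/N-Swiss Webster background, was rederived into C57BL/6, and was used at 8 weeks of age without further treatment in the labels. Stem libraries held cells sorted as LPA1-GFP+EGFR+Prominin1+, progenitor libraries held the other 3 combinations of EGFR and Prominin-1 among LPA1-GFP+ cells, and niche libraries held LPA1-GFP- cells, with 4 libraries in each of the 3 groups. RNA of 1000 cells was amplified for each library, and no lineage-negative gate against blood or microglia is named in the labels. In its title the series links these stem cells to an immune-like RNA profile, and the question taken up here is how the genes of brain phagocytes are spread over the sorted populations.

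On GRCm38 the genes lie on 6 chromosomes and all on the plus strand, as 8 protein-coding genes in the GENCODE vM21 annotation. Siglech (ENSMUSG00000051504) spans chr7:55768178-55778925 and Tyrobp (ENSMUSG00000030579) chr7:30413760-30417585. Trem2 (ENSMUSG00000023992) spans chr17:48346401-48354147 and Adgre1 (ENSMUSG00000004730) chr17:57358691-57483527. Csf1r (ENSMUSG00000024621) spans chr18:61100598-61132149, Ly86 (ENSMUSG00000021423) chr13:37345208-37419036, Laptm5 (ENSMUSG00000028581) chr4:130913125-130936141 and Lcp1 (ENSMUSG00000021998) chr14:75131101-75230842. Csf1r overlaps Hmgxb3 and Lcp1 overlaps Gm15628 and Gm15629 on the opposite strand, and since the use of strand in counting is not given in the sources used here, reads of such partners cannot be told apart.

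Microglia are the resident phagocytes of brain tissue, and related macrophages live at its borders, in the meninges, around vessels and in the choroid plexus. Both depend on CSF1R, a receptor tyrosine kinase for the growth factors CSF1 and interleukin-34. TREM2, a lipid-sensing surface receptor, and Siglec-H, a sialic acid-binding lectin, both signal through TYROBP (DAP12), an adaptor with an immunoreceptor activation motif that recruits the kinase SYK. In mouse brain Siglech is known as a marker of microglia that border macrophages largely lack, whereas Tyrobp, Csf1r, Adgre1 (the adhesion receptor that macrophage antibodies commonly target), Ly86 (MD-1, the secreted partner of the Toll-like receptor homologue CD180), Laptm5 (a lysosomal membrane protein of blood-derived cells) and Lcp1 (L-plastin, an actin-bundling protein of leukocytes) are shared by macrophages in general.

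All 8 genes were lower in progenitor than in stem and niche libraries by group mean, so the sequence just before the RefSeq transcription start is shown for 3 of them. They are Siglech and Trem2, which lean furthest to the niche libraries, and Laptm5, which holds the same marked letters as Trem2. Sequences are from RefSeq (GRCm38.p6), 5′ to 3′ on the plus strand. Capitals mark matches to GAGGAA, the core of sites bound by PU.1, the lineage transcription factor of macrophages, or to TGTGGT, the core of RUNX sites, read on either strand; TTCCTC and ACCACA are the same letters on the minus strand.
Siglech, chr7:55767934-55768183: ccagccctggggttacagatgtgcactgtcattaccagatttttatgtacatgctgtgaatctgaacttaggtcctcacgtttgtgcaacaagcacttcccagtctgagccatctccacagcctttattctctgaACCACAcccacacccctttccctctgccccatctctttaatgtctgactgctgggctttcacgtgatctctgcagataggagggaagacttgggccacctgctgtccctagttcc
Trem2, chr17:48346151-48346400: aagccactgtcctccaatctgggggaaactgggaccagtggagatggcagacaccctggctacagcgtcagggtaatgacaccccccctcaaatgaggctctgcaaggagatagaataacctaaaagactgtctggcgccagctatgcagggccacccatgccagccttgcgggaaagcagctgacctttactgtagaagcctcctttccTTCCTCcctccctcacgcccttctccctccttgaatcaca
Laptm5, 30 bases at chr4:130913266-130913295: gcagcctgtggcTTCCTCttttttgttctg
Positions count from the RefSeq start, which can differ from the GENCODE span given above. The 30 bases of Laptm5 lie inside its GENCODE span, as do the last bases of the Siglech window. In Trem2 the GAGGAA match lay at bases -40 to -35 from the RefSeq start and in Laptm5 at -38 to -33, both on the minus strand, while in Siglech a TGTGGT match lay at -115 to -110. Tyrobp, Adgre1 and Csf1r were not searched. In the 250 bases searched, Siglech, Ly86 and both starts of Lcp1 in that table held no GAGGAA. Of 32817 promoter windows of that length, 23.3% held GAGGAA and 14.0% held TGTGGT, so such matches are common. TATAAA was at -218 to -213 of Laptm5 and in 12.4% of all windows. The matches describe letters only.

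Stem libraries had 8693282 to 12948644 reads, progenitor libraries 14873117 to 22854036 and niche libraries 7597256 to 19237487, and each library had 8037 to 9700 genes above 0. Levels are RPKM, reads per kilobase of exon relative to all reads of a library, divided by a further factor per library (trimmed mean of M-values, TMM). They are written as scaled RPKM. Being per length, they put genes of unlike length on 1 scale, but uneven coverage along transcripts after amplification was not tested for. Niche replicate 1 stood apart through alpha-globin, which took 33.0% of its reads against 2.62% to 10.9% in the other niche libraries, 0.0200% to 0.186% in stem and 0.0523% to 0.228% in progenitor libraries. Mitochondrial genes took 9.94% to 11.99% of reads in stem, 9.26% to 14.1% in progenitor libraries and 15.4% to 25.8% in niche libraries, and the part of this in the values below was not tested. What a replicate was, a single mouse or several, is not stated. A p-value then covers only the scatter among the 4 libraries within each group, which may be technical. In the fit this scatter was pooled over stem, progenitor and niche libraries, so each p-value also depends on the group left out of its comparison. Fewer cells of a type and less RNA per cell cannot be told apart in such bulk samples.

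The 8 genes together were abundant in stem and niche libraries and scarce in progenitor libraries. Their summed level was 3159, 8493, 2632 and 2130 scaled RPKM in stem replicates 1 to 4, against 86.2, 241, 146 and 238 in progenitor and 4227, 3847, 2572 and 3932 in niche replicates. Stem libraries averaged 4104 ± 2956, progenitor libraries 178 ± 75.3 and niche libraries 3644 ± 733 (SD, n = 4 each). Stem replicate 2 held the highest sum of all 12 libraries, every progenitor library lay far below every other library, and stem and niche libraries overlapped. Without any scaling between libraries, reads of the 8 genes made up 0.543% to 1.93% of stem, 0.0106% to 0.0573% of progenitor libraries and 0.228% to 0.569% of niche libraries.

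**Figure D1:**
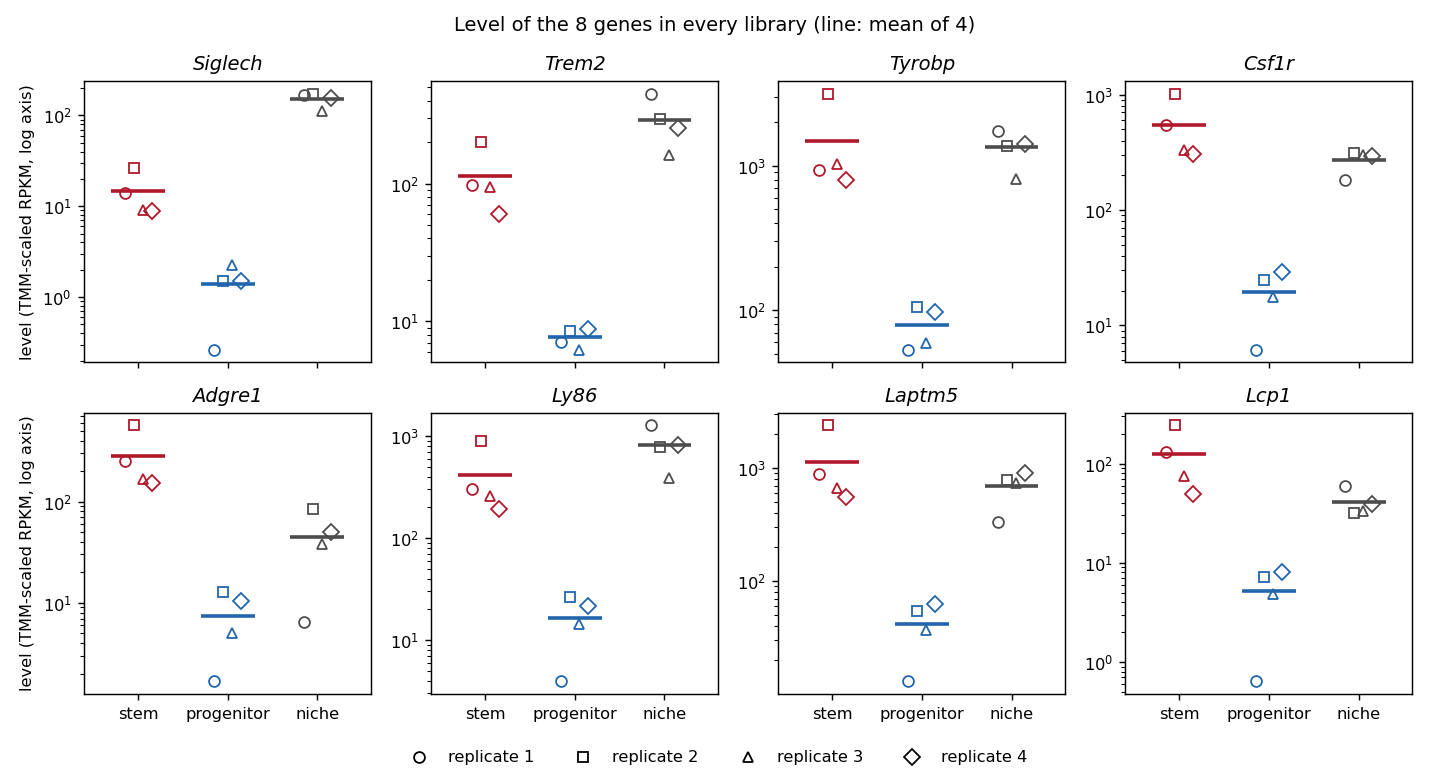
Level of each gene in every library, in TMM-scaled RPKM on a log axis, with stem, progenitor and niche libraries from left to right, a marker shape per replicate and a line at the group mean of 4. All 8 genes have their lowest group mean in progenitor libraries, Siglech is highest in niche libraries and Adgre1 in stem libraries.

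TREM2 and its adaptor were high on either side of the progenitors but in a different balance. Trem2 had 97.3, 199, 94.5 and 60.6 scaled RPKM in stem replicates 1 to 4, against 7.09, 8.52, 6.24 and 8.83 in progenitor and 449, 294, 161 and 253 in niche replicates. Every stem library lay above every progenitor library, and stem replicate 2 reached into the niche range. The fitted log2 fold change was 3.59 ± 0.38 (SE) for stem against progenitor, -1.39 ± 0.38 for stem against niche and -4.98 ± 0.38 for progenitor against niche. Tyrobp had the highest mean scaled RPKM of the 8 genes in each group, with exons of 564 bases against 4885 for Csf1r and 2570 for Laptm5. It had 934, 3150, 1036 and 796 scaled RPKM in stem, 53.4, 105, 59.3 and 96.9 in progenitor and 1753, 1379, 808 and 1419 in niche libraries. Its means of 1479 ± 1118 in stem and 1339 ± 392 in niche libraries (SD, n = 4 each) differed by less than either spread. The fitted log2 fold changes of Tyrobp were 4.03, -0.05 and -4.08 in the 3 comparisons in the same order, each with an SE of 0.40. The sign of its stem against niche value was not settled: it was 0.62 with scaling by library size alone and 0.10 without niche replicate 1.

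Siglech, the lectin that partners TYROBP on microglia, was the member that most set niche apart from stem. It had 14.1, 26.2, 9.11 and 8.88 scaled RPKM in stem replicates 1 to 4, against 0.264, 1.50, 2.26 and 1.50 in progenitor and 168, 173, 112 and 154 in niche replicates. The 3 groups did not overlap: each niche library lay above each stem library, and each stem library above each progenitor library. The progenitor values rest on 9, 72, 138 and 104 reads, against 328 to 756 reads in stem and 2190 to 6804 in niche libraries. The log2 fold change was 2.66 ± 0.44 for stem against progenitor, -3.40 ± 0.44 for stem against niche and -6.06 ± 0.44 for progenitor against niche. The pseudocount of 1 RPKM shrinks a level this low, and with 0.1 RPKM the stem against progenitor value was 3.44.

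Csf1r, the growth factor receptor of the lineage, had 547, 1016, 329 and 308 scaled RPKM in stem replicates 1 to 4, against 6.17, 24.7, 17.5 and 29.1 in progenitor and 182, 313, 299 and 295 in niche replicates. Stem libraries 1 to 3 lay above all niche libraries, and stem replicate 4 fell among them. The log2 fold change of Csf1r was 4.77 ± 0.45 for stem against progenitor, 0.87 ± 0.45 for stem against niche and -3.90 ± 0.45 for progenitor against niche.

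Adgre1 was the member that leaned furthest to the stem libraries. It had 254, 564, 166 and 154 scaled RPKM in stem replicates 1 to 4, against 1.69, 12.8, 5.06 and 10.3 in progenitor and 6.41, 84.3, 38.0 and 50.3 in niche replicates. Every stem library lay above every library of the other groups, while niche replicate 1, with 109 reads, fell within the progenitor range. The log2 fold change was 5.12 ± 0.69 for stem against progenitor, 2.88 ± 0.69 for stem against niche and -2.24 ± 0.69 for progenitor against niche. Without niche replicate 1 the values against niche were 2.16 for stem and -2.97 for progenitor.

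Ly86, which encodes the secreted MD-1 protein, followed Trem2 in leaning to the niche. It had 302, 903, 260.5 and 194 scaled RPKM in stem replicates 1 to 4, against 3.95, 26.3, 14.3 and 21.5 in progenitor and 1273, 789.6, 385 and 810 in niche replicates. Only stem replicate 2 reached into the niche range. The log2 fold changes were 4.55, -1.12 and -5.67 for stem against progenitor, stem against niche and progenitor against niche, each with an SE of 0.55. Laptm5, the lysosomal membrane protein, had 879.7, 2391, 662 and 558 scaled RPKM in stem, 13.01, 54.6, 36.9 and 62.1 in progenitor and 336, 783, 736 and 912 in niche libraries. Its stem and niche libraries were interleaved, and its log2 fold changes were 4.67, 0.53 and -4.14, each with an SE of 0.51. Lcp1, the actin bundler, had 130.5, 243, 75.2 and 49.9 scaled RPKM in stem, 0.642, 7.21, 4.88 and 8.10 in progenitor and 59.8, 31.6, 33.3 and 39.2 in niche libraries. Stem libraries 1 to 3 lay above all niche libraries, and the log2 fold changes were 4.35, 1.38 and -2.97, each with an SE of 0.56.

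Across the 8 genes, every stem library lay above every progenitor library for 8 of 8, an order that 11.3% of all tested genes showed; 3.74% of tested genes were called higher in stem than in progenitor libraries by limma at an adjusted p under 0.05. Every progenitor library lay below every niche library for 7 of 8, with Adgre1 the exception, beside 6.67% of tested genes, and 5.67% of tested genes were called lower. Between stem and niche, Adgre1 was above in every stem library, Siglech was below in every stem library, and the other 6 overlapped; 12.6% and 10.2% of tested genes showed these orders, and 21.9% were called in either direction. Since the genes were chosen for such patterns, the counts are not evidence beyond the choice. The median log2 fold change of the 8 genes was 4.45 for stem against progenitor, with a range of 2.66 to 5.12, beside -0.06 over all tested genes. It was 0.24 for stem against niche, with a range of -3.40 to 2.88, beside 0.11 over all tested genes, and -4.11 for progenitor against niche, with a range of -6.06 to -2.24, beside 0.17. Without stem replicate 2 the stem against niche median was -0.20, so its sign rests on that library.

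**Figure D2:**
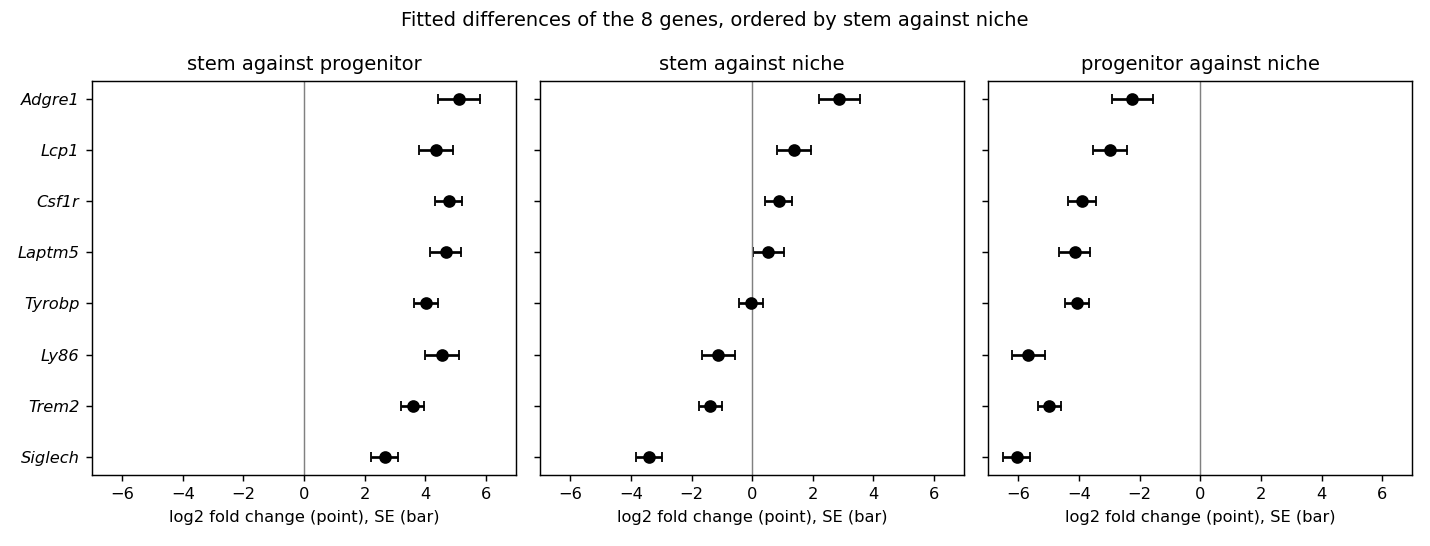
Fitted log2 fold change (point) and its SE (bar) of each gene for stem against progenitor, stem against niche and progenitor against niche, on log2(scaled RPKM + 1), with genes ordered by the stem against niche value. All points lie right of 0 in the left panel and left of 0 in the right panel, while the middle panel runs from -3.40 for Siglech to 2.88 for Adgre1.

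The position of 0 between stem and niche depends on the scaling. With library sizes alone, the stem against niche median over all tested genes moved to 0.58 and 5 of the 8 genes were above 0 in place of 4. On that scale Adgre1 was at 3.49, Lcp1 at 2.03, Csf1r at 1.53, Laptm5 at 1.20 and Tyrobp at 0.62, with Ly86 at -0.46, Trem2 at -0.72 and Siglech at -2.76. A change of scaling shifts all genes of a library together, so their order is no check.

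Ratios between 2 of the genes within a library need no scaling. Only 7 such ratios were formed, from picked pairs, and several set a gene leaning to the niche against one leaning to the stem libraries. Among these 7, stem and niche libraries did not overlap in any, whereas stem and progenitor libraries overlapped in 5. The remaining pairs were not examined, so these counts hold for the picked pairs only and follow in part from their choice. For each Csf1r unit, Siglech stood at 0.0258 to 0.0288 in stem libraries, 0.0428 to 0.129 in progenitor libraries and 0.374 to 0.922 in niche libraries, without overlap between groups. The ratio had a mean log2 value of -5.21 ± 0.08 in stem, -3.95 ± 0.70 in progenitor and -0.83 ± 0.54 in niche libraries (SD, n = 4 each), so the stem libraries were nearly constant although their levels differed several-fold. Trem2 over Tyrobp, the receptor over its adaptor, ran from 0.0632 to 0.104 in stem, 0.0809 to 0.133 in progenitor libraries and 0.178 to 0.256 in niche libraries. Adgre1 over Csf1r ran the other way, from 0.465 to 0.555 in stem, 0.273 to 0.516 in progenitor libraries and 0.0351 to 0.270 in niche libraries. Ly86 over Laptm5 lay at 0.344 to 0.394 in stem, 0.304 to 0.483 in progenitor libraries and 0.524 to 3.79 in niche libraries. Siglech over Adgre1, the 2 ends of the order, lay at 0.0465 to 0.0577 in stem, 0.118 to 0.447 in progenitor libraries and 2.05 to 26.2 in niche libraries. Siglech over Tyrobp lay at 0.00832 to 0.0151 in stem, 0.00495 to 0.0382 in progenitor libraries and 0.0960 to 0.139 in niche libraries. Lcp1 over Tyrobp lay at 0.0627 to 0.140 in stem, 0.0120 to 0.0835 in progenitor libraries and 0.0229 to 0.0412 in niche libraries, the 1 ratio in which progenitor and niche libraries overlapped.

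The make-up of the summed signal shows the same contrast. Tyrobp made up 35.9 ± 4.31% of it in stem, 46.7 ± 10.3% in progenitor and 36.2 ± 4.12% in niche libraries (SD, n = 4 each). Siglech made up 0.380 ± 0.0635% in stem, 0.776 ± 0.535% in progenitor and 4.19 ± 0.283% in niche libraries. The share of Ly86 came to 9.80 ± 0.638% in stem, 8.57 ± 2.77% in progenitor and 21.6 ± 6.28% in niche libraries, and that of Trem2 2.97 ± 0.518%, 4.93 ± 2.21% and 7.74 ± 2.02% in the same order. Csf1r, at 14.1 ± 2.42%, 10.4 ± 2.33% and 7.89 ± 3.00%, and Adgre1, at 7.06 ± 0.759%, 3.76 ± 1.42% and 1.27 ± 0.845%, had their largest share in stem libraries. The mean share in progenitor libraries lay between those of the other groups for every gene but Tyrobp and Ly86.

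**Figure D3:**
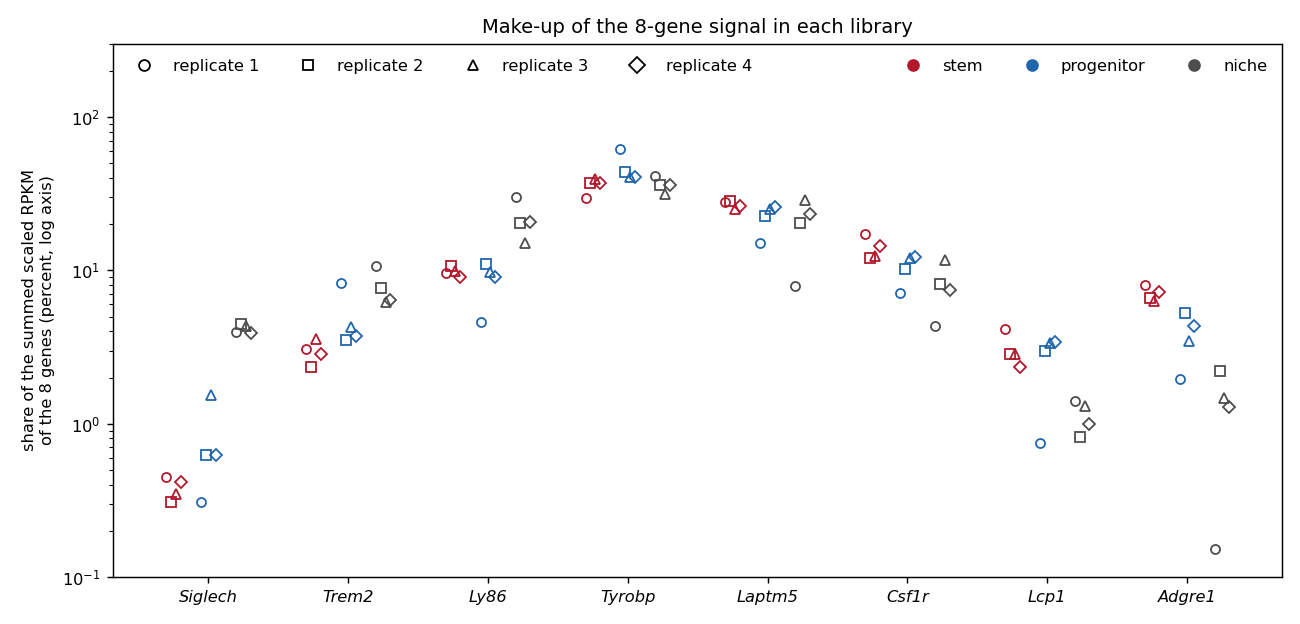
Share of each gene in the summed scaled RPKM of the 8 genes, in percent on a log axis, per library, with stem (left), progenitor (middle) and niche (right) for each gene and genes ordered by their stem against niche fold change. Siglech takes 0.309% to 0.447% in stem libraries against 3.92% to 4.50% in niche libraries, and Adgre1 6.31% to 8.04% against 0.152% to 2.19%.

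Within groups, all 8 genes lay on 1 side of the group mean in stem replicates 2, 3 and 4 and in progenitor replicates 1, 2 and 4. In stem replicate 1, progenitor replicate 3 and every niche library they lay on both sides. Stem replicate 2 was the highest stem library for 8 of 8, where 26.9% of all tested genes had their highest stem value in it, and it lay 0.93 to 1.39 log2 units above the group mean. Stem replicates 3 and 4 lay below the mean for 8 of 8, at mean deviations of -0.42 and -0.73. That mean is pulled up by stem replicate 2, at a mean deviation of 1.18. The share of all tested genes below it in these libraries was not counted. Progenitor replicate 1 was the lowest progenitor library for 7 of 8, all but Trem2, beside 45.5% of tested genes, and its mean deviation was -1.09 log2 units. Niche replicate 1, the library with most globin, was mixed on the scaled level. Adgre1, Laptm5 and Csf1r were lowest there, at deviations of -2.18, -0.95 and -0.54. Ly86, Trem2, Lcp1 and Tyrobp were highest there, at 0.77, 0.73, 0.58 and 0.44, but only after scaling. Its TMM factor of 0.4315, against 0.8226 to 0.9664 in the other niche libraries, raises all its levels. Reads of the 8 genes made up 0.228% of it, against 0.479% to 0.569% in the other niche libraries. Of all tested genes, 40.8% had their lowest scaled niche value in niche replicate 1. The part of globin or depth in these deviations was not tested.

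**Figure D4:**
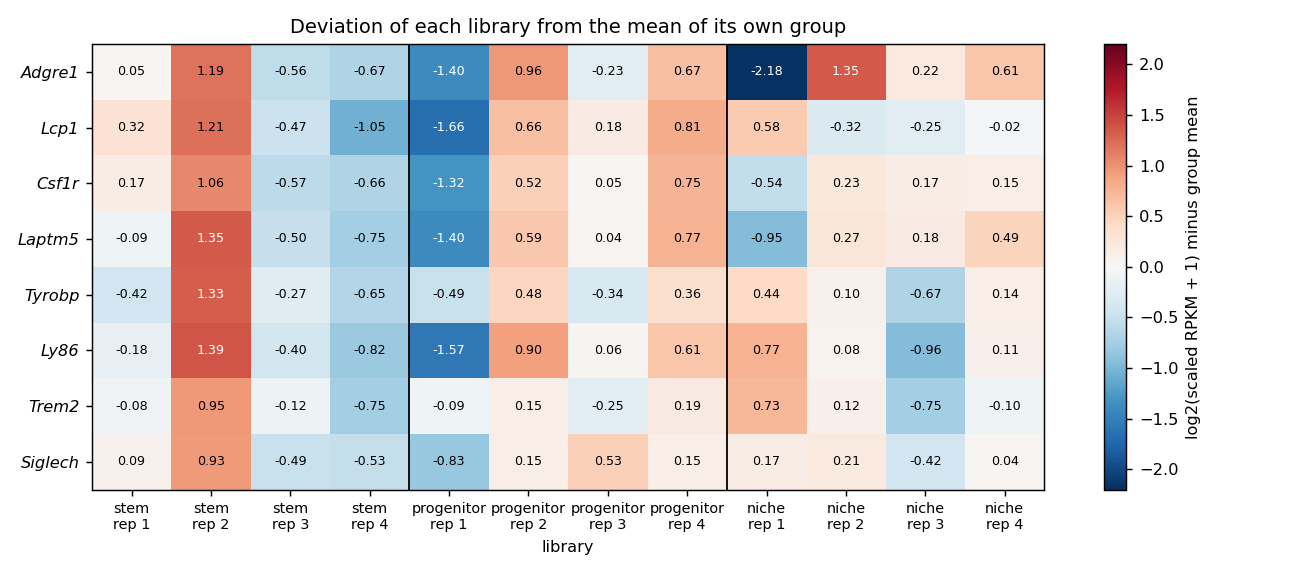
Deviation of each gene in each library from the mean of its own group, in log2(scaled RPKM + 1), with libraries across the page as stem, progenitor and niche replicates 1 to 4 and genes down it. Stem replicate 2 is raised for all 8 genes by 0.93 to 1.39, progenitor replicate 1 is low for all 8 at -1.66 to -0.09, and niche replicate 1 is mixed.

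Likeness between profiles was measured as the root-mean-square distance of log2(scaled RPKM + 1) values, each centred on its own mean over the 12 libraries. Csf1r and Laptm5 were the closest pair, at 0.24 log2 units, and each was nearest to the other among all tested genes. Siglech and Adgre1 were the farthest pair of the 8, at 2.73. Trem2 and Ly86 were both nearest to Ctss, the gene of the lysosomal protease cathepsin S, at 0.37 and 0.61. Tyrobp was nearest to Pld4, a nuclease of endosomes, at 0.31, Lcp1 to Ptafr, the receptor of platelet-activating factor, at 0.42, Adgre1 to Clec4a3, a C-type lectin receptor, at 0.56, and Siglech to Gngt2, a G protein gamma subunit, at 0.58. Gngt2 averaged 6.48 ± 5.62 scaled RPKM in stem, 0.970 ± 0.647 in progenitor and 105 ± 50.2 in niche libraries (SD, n = 4 each), and Ptafr averaged 93.6 ± 69.0, 1.95 ± 1.34 and 22.1 ± 7.88 in the same order. The 10 genes nearest to the mean profile of the 8 were Gm26542 at 0.30, Ptgs1 at 0.38, Pld4 at 0.39, Tbxas1 at 0.53, Alox5ap at 0.62, Ctss at 0.63, Rnase4 at 0.64, Ccl4 and AI467606 at 0.67 and Clec4a2 at 0.69. Ptgs1, Tbxas1 and Alox5ap encode enzymes or helpers of prostaglandin, thromboxane and leukotriene synthesis. Gm26542 is annotated antisense to Ltc4s, the leukotriene C4 synthase gene, and Rnase4 overlaps Ang on its own strand. On the opposite strand Gngt2 overlaps Abi3 and Tbxas1 overlaps Hipk2. The reads of these pairs cannot be told apart.

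The other genes of the same pathways were taken from 7 lists written by name, with earlier results of these data known. The lists held 151 genes, of which 61 had values and 60 were tested. In stem against progenitor libraries 39 of the 60 rose and 2 fell by limma's adjusted p, with 19 not called and a median log2 fold change of 2.35, beside 3.74% and 3.55% of all tested genes. In stem against niche libraries 7 rose and 6 fell, with a median of 0.55, beside 11.3% and 10.6% of all tested genes, shares close to the 11.7% and 10% of the lists; with scaling by library size alone, 15 were called higher and 3 lower. In progenitor against niche libraries none of the 60 rose at that threshold and 21 fell, with a median of -1.74, beside 6.09% and 5.67% of all tested genes; at an unadjusted p under 0.05, 1 was higher and 40 lower, and limma's voom on recovered reads called 1 higher and 20 lower. These comparisons share libraries and are not independent of each other. Without stem replicate 2, 23 of the 60 were called higher and 1 lower in stem against progenitor, and without niche replicate 1, 34 were called lower and 2 higher in progenitor against niche.

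**Figure D5:**
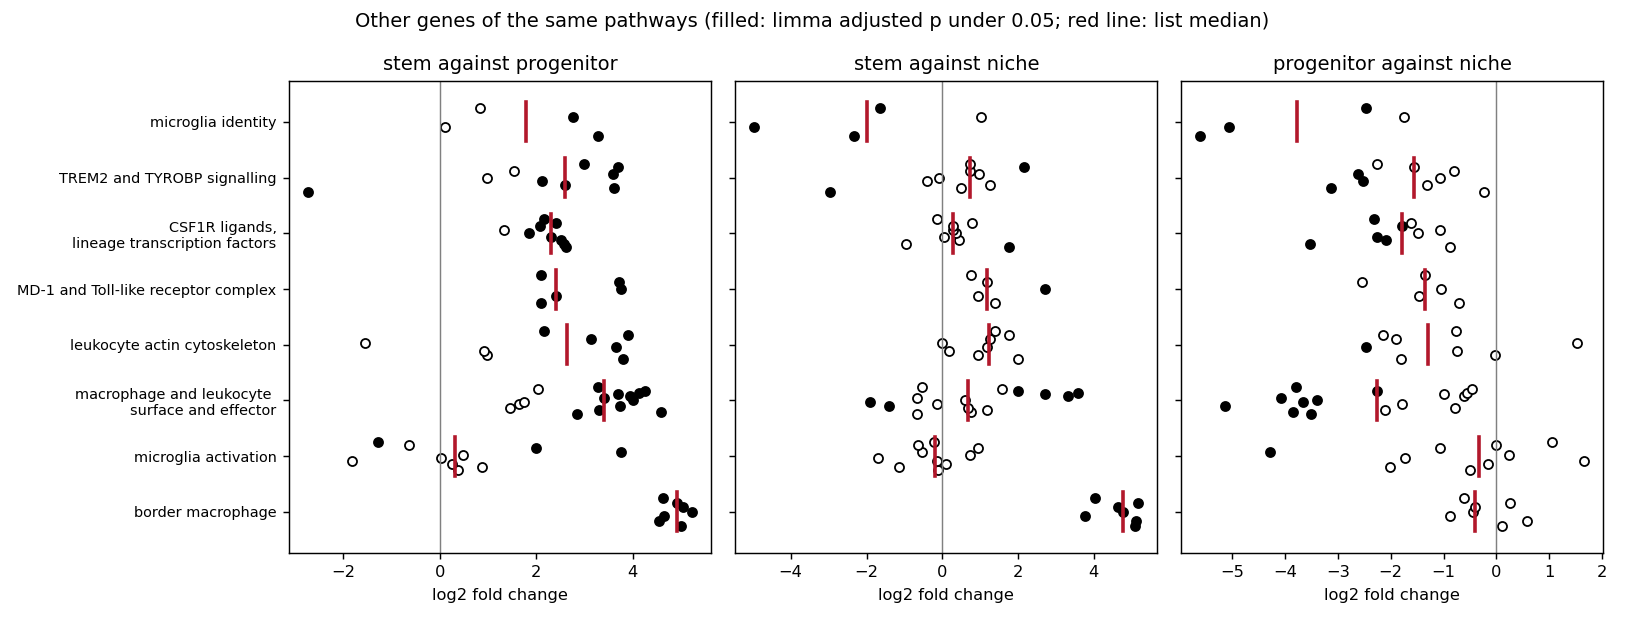
Log2 fold change of each tested gene of the 7 pathway lists and the border macrophage list in the 3 comparisons; filled points have a limma adjusted p under 0.05 and red lines mark list medians. Most points lie right of 0 for stem against progenitor and left of 0 for progenitor against niche, while the border macrophage genes lie right of 0 in the left and middle panels, with medians of 4.91 and 4.78.

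Of 15 listed microglia identity genes, 4 were tested. In stem against niche libraries 3 of the 4 fell: Slc2a5, a fructose transporter of microglia, averaged 1.84 ± 1.49 scaled RPKM in stem and 106 ± 109 in niche libraries (SD, n = 4 each; log2 fold change -4.96 ± 0.65, limma adjusted p = 5.87e-05). Gpr34, a lysophosphatidylserine receptor, averaged 99.0 ± 72.6 in stem and 589.7 ± 551 in niche libraries (-2.33 ± 0.57, limma adjusted p = 0.00893), and Tgfbr1, a receptor of TGF-beta, 9.60 ± 2.59 and 32.0 ± 7.76 (-1.64 ± 0.42, limma adjusted p = 0.0107). The Tgfbr1 call was lost with scaling by library size, at an adjusted p of 0.0960. Entpd1, an ectonucleotidase shared with endothelium, was at 1.02 (limma adjusted p = 0.386). In stem against progenitor libraries Gpr34 rose by 3.27 ± 0.57 (limma adjusted p = 0.00232), whereas Slc2a5 was at 0.10 (adjusted p = 0.972) and Tgfbr1 at 0.83 (adjusted p = 0.326). Entpd1 was called at 2.76 ± 0.79 (limma adjusted p = 0.0454), and that call was lost in 12 of the 20 alternatives. In progenitor against niche libraries Gpr34 fell by 5.60, Slc2a5 by 5.06 and Tgfbr1 by 2.47 on the log2 scale, with limma adjusted p-values of 1.87e-05, 0.000105 and 0.00101.

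Downstream of TREM2 and TYROBP, 9 of 33 listed genes were tested. In stem against progenitor libraries 6 rose, 1 fell and 2 were not called. Lcp2, the adaptor SLP-76, rose by 3.69 ± 0.61 (limma adjusted p = 0.00142), Itgb2, the shared beta chain of leukocyte integrins, by 3.62 ± 0.87 (adjusted p = 0.0181), Vav1, a guanine nucleotide exchange factor, by 3.60 ± 0.76 (adjusted p = 0.00767), and Inpp5d, the phosphatase SHIP-1 that restrains the pathway, by 2.98 ± 0.74 (adjusted p = 0.0205). Without stem replicate 2, 3 of the 6 remained past the threshold; the calls lost were those of Itgb2 and Inpp5d, and of Lyn, a Src family kinase, which was lost in 7 of the 20 alternatives. Vav3 was at 1.54 (adjusted p = 0.0879) and Plcg2, the phospholipase of the pathway, at 0.99 (adjusted p = 0.318). Clu, an apolipoprotein that TREM2 binds and that astrocytes secrete, fell against both: it averaged 279 ± 121 scaled RPKM in stem, 1777 ± 452 in progenitor and 2146 ± 724 in niche libraries (SD, n = 4 each; limma adjusted p = 0.000153 and 1.43e-05). In stem against niche libraries Lcp2 was the gene that rose, by 2.15 ± 0.61 (limma adjusted p = 0.0192), a call lost without stem replicate 2 and with a pseudocount of 0.1. In progenitor against niche libraries 3 fell, namely Itgb2 at -3.13 (limma adjusted p = 0.0296), Vav1 at -2.62 (adjusted p = 0.0356) and Lyn at -2.52 (adjusted p = 0.00941). The call of Vav1 was lost in 10 of the 20 alternatives and that of Itgb2 in 8, while without niche replicate 1 the count called lower was 6.

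Around CSF1R, 9 of 19 listed receptors and lineage transcription factors were tested, and 8 rose in stem against progenitor libraries. Csf2rb, the shared beta chain of the GM-CSF receptor family, rose by 2.61 ± 0.60 (limma adjusted p = 0.0126), Csf3r, the G-CSF receptor, by 2.57 ± 0.53 (adjusted p = 0.00664), Spi1, which encodes PU.1, by 2.51 ± 0.48 (adjusted p = 0.00417) and Ikzf1, a zinc-finger factor of blood cells, by 2.41 ± 0.69 (adjusted p = 0.0448). Without stem replicate 2 the count fell to 3 of the 8, with Csf2rb, Ikzf1, Irf8, Irf5 and Cebpb no longer called, and the Ikzf1 call was lost in 10 of the 20 alternatives. Cebpa was at 1.33 (adjusted p = 0.134). Spi1 averaged 7.05 ± 5.33 scaled RPKM in stem, 0.245 ± 0.155 in progenitor and 4.54 ± 2.03 in niche libraries (SD, n = 4 each). At such low levels the size of its rise over progenitor is uncertain. Apart from single libraries left out, it ran from 1.28 to 4.72 over the alternatives. In progenitor against niche libraries 5 fell, among them Csf3r at -3.52 ± 0.53 (limma adjusted p = 0.000402), Mef2c at -2.31 ± 0.44 (adjusted p = 0.00261), Irf8 at -2.25 ± 0.59 (adjusted p = 0.0232) and Spi1 at -2.09 ± 0.48 (adjusted p = 0.0103). The Irf8 call was lost in 5 of the 20 alternatives, and that of Cebpb, the other of the 5, in 11. In stem against niche libraries Csf2rb was the gene called, at 1.75 ± 0.60 (limma adjusted p = 0.0472), and that call was lost in 14 of the 20 alternatives.

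Of 12 listed partners of MD-1 and Toll-like receptor genes, 5 were tested and all 5 rose in stem against progenitor libraries, a count that fell to 2 without stem replicate 2. Cd180, its receptor partner, averaged 4.55 ± 3.51 scaled RPKM in stem, 0.147 ± 0.103 in progenitor and 1.14 ± 1.32 in niche libraries (SD, n = 4 each), a rise of 2.10 ± 0.49 over progenitor (limma adjusted p = 0.0142). The size of this rise is uncertain, since no progenitor library had more than 25 reads of Cd180. Apart from single libraries left out, it ran from 0.97 to 4.98 over the alternatives. Tlr4, the lipopolysaccharide receptor, rose by 3.76 ± 0.59 (adjusted p = 0.000985), Tlr13, a sensor of bacterial ribosomal RNA, by 3.72 ± 0.82 (adjusted p = 0.0106), and Ly96, the MD-2 partner of TLR4, by 2.40 ± 0.63 (adjusted p = 0.0299). Irak4, a kinase of Toll-like receptor signalling, was at 2.09 ± 0.59 (adjusted p = 0.0440), a call lost in 14 of the 20 alternatives. Without stem replicate 2 the calls of Tlr13, Ly96 and Irak4 were lost. Unlike Ly86, which averaged 415 ± 328 in stem and 815 ± 363 in niche libraries, Tlr4 averaged 32.8 ± 18.7 in stem and 4.60 ± 3.02 in niche libraries (SD, n = 4 each), a rise of 2.72 ± 0.59 (limma adjusted p = 0.00358). Whether Tlr4 and Ly86 differ in their response was not tested.

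Of the leukocyte actin genes that accompany L-plastin, 20 were listed and 8 tested, and 5 rose in stem against progenitor libraries. Cyth4 rose by 3.91 ± 0.80 (limma adjusted p = 0.00664), Hcls1, a cortactin-like protein, by 3.79 ± 0.74 (adjusted p = 0.00503), Nckap1l, a subunit of the WAVE complex, by 3.65 ± 0.74 (adjusted p = 0.00633) and Myo1f, a myosin, by 3.13 ± 0.74 (adjusted p = 0.0152), the last lost without stem replicate 2, where 3 of the 5 were called. Arpc1b was at 0.97 (adjusted p = 0.670), Dock8 at 0.91 (adjusted p = 0.219) and Capg at -1.54 (adjusted p = 0.405). None of the 8 was called between stem and niche libraries, where the median was 1.22; 3 were higher at an unadjusted p under 0.05, and voom called 0. Nckap1l fell in progenitor against niche libraries, at -2.46 ± 0.74 (limma adjusted p = 0.0430), a call lost in 14 of the 20 alternatives.

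Of 34 macrophage surface and effector genes, 15 were tested. In stem against progenitor libraries 11 rose and 4 were not called, led by Cd48, a surface receptor of the SLAM family, at 4.58 ± 0.66 (limma adjusted p = 0.000511), Unc93b1, the chaperone of endosomal Toll-like receptors, at 4.26 ± 0.56 (adjusted p = 0.000256), Ms4a6c at 4.12 ± 0.79 (adjusted p = 0.00438) and Tbxas1 at 4.00 ± 0.53 (adjusted p = 0.000270). In stem against niche libraries 4 rose, namely Ms4a6c at 3.57 (limma adjusted p = 0.00443), Slfn2 at 3.33 (adjusted p = 0.00895), Ms4a6b at 2.70 (adjusted p = 0.00316) and Unc93b1 at 2.00 (adjusted p = 0.0180), the last lost without stem replicate 2. Ms4a6b and Ms4a6c belong to a cluster of close copies, so the split of reads between them is uncertain. On the other side 2 fell: Ctss averaged 899.8 ± 652 scaled RPKM in stem and 2096 ± 663 in niche libraries (SD, n = 4 each; -1.40 ± 0.39, limma adjusted p = 0.0192), and Mpeg1, the pore-forming perforin-2, was at -1.91 (adjusted p = 0.0375). The Ctss call was lost in 5 of the 20 alternatives and the Mpeg1 call in 12, library-size scaling among them for both. In progenitor against niche libraries 8 fell, led by Ctss at -5.14 (limma adjusted p = 2.05e-06), Alox5ap at -4.07 (adjusted p = 7.06e-05), Cd48 at -3.84 (adjusted p = 0.00114) and Ncf4, an oxidase subunit, at -3.80 (adjusted p = 0.000709).

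Genes that rise when microglia are activated had the smallest median of the 7 lists between stem and progenitor libraries. Of 18 listed, 10 were tested. In stem against progenitor libraries 2 rose, Ccl4, a chemokine, at 3.76 ± 0.76 (limma adjusted p = 0.00608) and Ctsb, the protease cathepsin B, at 2.00 ± 0.34 (adjusted p = 0.00178), while Fabp5, a fatty acid-binding protein, fell, at -1.28 ± 0.36 (adjusted p = 0.0414), a call lost in 10 of the 20 alternatives. The list's median was 0.32 there. None was called by limma between stem and niche libraries, where 1 was higher and 1 lower at an unadjusted p under 0.05 and voom called 0. In progenitor against niche libraries Ccl4 fell, at -4.29 ± 0.76 (limma adjusted p = 0.00152). Itgax, Gpnmb, Cst7 and Spp1, which mark the disease-associated state of microglia, differed widely between libraries of a group and none was called. Itgax ran from 0 to 1.35 scaled RPKM in stem, 0.0743 to 0.733 in progenitor libraries and 0 to 3.10 in niche libraries, and Cst7 from 0 to 2.66, 0.0639 to 1.85 and 0 to 10.3 in the same order. Gpnmb ran from 0 to 1.56 in stem, 0.327 to 0.472 in progenitor libraries and 0.290 to 19.3 in niche libraries. Spp1 ran from 0.0590 to 34.4 in stem, 0.1498 to 25.3 in progenitor libraries and 0.204 to 11.2 in niche libraries.

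Markers of border macrophages, a cell type that also expresses Csf1r, Adgre1 and Tyrobp, were set beside the 8 genes. Their list was written with earlier results of these data known, so its counts and p-values are a description and not independent support. All 7 of the 7 measured of 14 listed rose in stem against progenitor libraries (median log2 fold change 4.91) and in stem against niche libraries (median 4.78), beside 3.74% and 11.3% of all tested genes. Between progenitor and niche 0 of 7 were called (median -0.40), beside 11.8% of all tested genes called in either direction. There 0 of the 7 had an unadjusted p under 0.05 in limma and voom called 0. Their summed level was 2784, 9488, 2434 and 2233 scaled RPKM in stem replicates 1 to 4, against 58.0, 231, 85.5 and 156 in progenitor and 707, 186, 70.7 and 199.6 in niche replicates. Mrc1, the mannose receptor that defines them, averaged 355 ± 262 in stem, 9.20 ± 4.53 in progenitor and 8.29 ± 3.69 in niche libraries (SD, n = 4 each; limma adjusted p = 3.64e-05 and 4.51e-06 against progenitor and niche). Stem replicate 2, highest for all 8 genes, was also highest for this sum, and progenitor replicate 1, lowest for 7 of the 8, was also lowest. These genes thus stood with the 8 in stem libraries but not in niche libraries, and their part in the stem values was not tested.

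Markers of other leukocytes were low in stem and progenitor libraries. The 4 measured of 12 monocyte and granulocyte genes summed to 7.30 to 22.9 scaled RPKM in stem, 1.15 to 1.59 in progenitor libraries and 8.36 to 152 in niche libraries, and Ccr2, the monocyte chemokine receptor, averaged 0.553 ± 0.764 in stem, 0.543 ± 0.604 in progenitor and 9.58 ± 11.1 in niche libraries (SD, n = 4 each). S100a8, a neutrophil gene, had 0 reads in niche libraries and at most 7 in a stem library, and Csf3r is shared with the CSF1R list. The 5 measured of 14 lymphocyte genes summed to 1.68 to 8.42 in stem, 3.21 to 14.7 in progenitor libraries and 0.152 to 81.1 in niche libraries. Of 16 neural stem genes 9 were tested, and in stem against progenitor libraries Egfr, a sort marker, was called higher (a call lost without stem replicate 2) and Id4, an inhibitor of differentiation, lower, with 7 not called. Egfr averaged 34.3 ± 6.52 scaled RPKM in stem, 5.68 ± 3.99 in progenitor and 8.32 ± 9.20 in niche libraries, and Id4 10.3 ± 2.67, 48.6 ± 21.7 and 51.5 ± 14.1 in the same order (SD, n = 4 each). Sox2, a neural stem cell factor, averaged 51.1 ± 11.3 in stem, 42.4 ± 6.27 in progenitor and 42.0 ± 15.7 in niche libraries, so it did not set the populations apart. Of 12 neuronal progenitor genes 6 were tested, and Stmn2, Tubb3 and Cd24a were called lower in stem than in progenitor libraries; Tubb3, a tubulin of neurons, averaged 45.4 ± 19.9 in stem, 774 ± 387 in progenitor and 124.5 ± 37.2 in niche libraries. Eomes, a factor of neuronal progenitors, averaged 23.2 ± 5.77 in stem, 41.6 ± 7.01 in progenitor and 0.719 ± 0.404 in niche libraries (SD, n = 4 each). All 7 tested of 12 listed genes of neurons, oligodendrocytes, endothelium and choroid plexus, and all 3 tested of 6 red cell genes, were called lower in stem than in niche libraries, beside 10.6% of all tested genes. Whether the same cells held both kinds of RNA cannot be told apart in a pool of 1000 cells.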

How the data were processed

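The 12 libraries are polyadenylated RNA of sorted cells, amplified before library preparation, per the labels' protocols. The deposited table holds log2 values, taken from the values themselves to be log2(RPKM + 1), with RPKM as reads per kilobase of exon over the library total, as computed by the authors on GRCm38 (mm10) per the submitters' processing notes; no aligner, counter or strand setting is given there. With the log undone, the annotated exon length gave whole reads, within 1e-05 reads, and was kept for 1234 genes. For 9276 genes the annotated length was missing or not accepted. There the shortest length that made the values whole reads was taken. No gene above 0 was left without a length. With these lengths 100% of the values above 0 were whole reads, a share that the choice of lengths in part fixed. Totals were 7597256 to 22854036 reads, and a floor of 3 reads is 0.131 to 0.395 CPM (reads scaled to a common total). Amplified reads carry no molecular identifiers, so depth covers counting error only. No replicate pair lay within sampling noise (lowest chi-square per degree of freedom 38.9).

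The filter asked for 10 reads per median library in 4 or more libraries (0.767 CPM) and a total of 15 reads. TMM factors (30% and 5% trims) scaled RPKM; log2(value + 1) was fitted with 1 mean per group over 12 libraries in limma 3.58.1 (R 4.3.3) using its intensity trend and robust option, and Benjamini-Hochberg adjustment ran over 8360 genes at 0.05; all gene p-values come from this fit. Fold changes on this scale understate changes of low genes. The procedure was tested on simulated data. Of the deposited identifiers, 10579 matched a symbol. The 8 genes and all lists were chosen with earlier results of these data known; 1 gene was left out of a list and is not analysed here. Named were all 8 genes, up to 4 called genes per pathway list by size of change, list genes not called where there were 3 or fewer, the 10 nearest profiles, and the most abundant genes of marker lists; Clu against progenitor, Ctss and Mpeg1 in stem against niche, Itgax, Cst7, Gpnmb, Spp1, Irak4, Irf5, Cebpb, Ccr2, Eomes, Sox2, Id4, Egfr and the 3 neuronal genes that fell were chosen after their values were seen. The 20 alternatives cover library-size scaling, pseudocounts of 0.1 and 4 RPKM, no filter, a replicate block, 2 groups alone, voom, and libraries left out.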

Additional observations from a re-analysis of the deposited data

Results flagged for a closer look

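Some values stood apart from the other libraries of their group by Dixon's criterion for 4 values. Of 150 groups tested, 21 did so. The criterion's rate of about 1 in 20 holds for independent, normally distributed values. Here it was used on the linear scale and on genes of the same libraries, so the 21 cannot be set against that rate. Among the 8 genes, Tyrobp in stem replicate 2 had 3150 scaled RPKM against 796 to 1036 in the other stem libraries. Ly86 in the same library had 903 against 194 to 302. Csf1r in niche replicate 1 had 182 against 295 to 313 in the other niche libraries.

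Stem replicate 2 was also apart, and highest, for further pathway genes. Alox5ap had 507 scaled RPKM there, Ms4a6c 245, Ms4a6b 196, Ly96 90.0, Tbxas1 83.9, Ncf4 27.3, Csf3r 21.1, Spi1 15 and Cebpa 10.7. The stem counts with and without it are given above.

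Niche replicate 1 was apart and highest for Slc2a5 (269.6 scaled RPKM against 41.3 to 62.5), Capg (49.8 against 0.171 to 3.04) and Irf8 (36.5 against 5.64 to 6.79), and lowest for Unc93b1 (8.74 against 56.3 to 62.1). Progenitor replicate 1 was apart and highest for Fabp5 (531), Arpc1b (35.3) and Irf8 (2.62). Tlr4 in progenitor replicate 4 had 2.01 scaled RPKM, and Slfn2 in niche replicate 4 had 87.8 against 2.18 to 12.6. The part of library quality in these values was not tested.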

How the results depend on the processing

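Over the 20 alternatives the 8 genes kept the sign of their stem against progenitor and progenitor against niche differences. Their median was 3.95 to 4.76 for stem against progenitor, -0.20 to 0.48 for stem against niche and -4.29 to -3.79 for progenitor against niche when each library was left out in turn, and 0.91 for stem against niche with scaling by library size. Of 480 values of single genes among the 8, 469 were counted as moved by less than the spread and 11 by more. Part of the 469 was fixed in advance. No filter, a replicate block, the 2 groups alone or a library left out of the third group cannot change a fold change. The spread used was also wider than the SE. With scaling by library size, Csf1r in stem against niche went from 0.87 to 1.53, past its SE of 0.45, and was not among the 11. With voom Siglech was at 3.45 for stem against progenitor and -7.0 for progenitor against niche.

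Counts of called genes moved more than the 8 genes did. For stem against progenitor, 610 genes were called, against 1412 with the 2 groups alone and 1134 without progenitor replicate 1 and niche replicate 1, and 370 to 1116 with a library left out in turn. For stem against niche, 1827 were called, against 3030 without those 2 libraries and 1282 to 2509 with a library left out; the split of 941 higher and 886 lower became 2017 and 586 with scaling by library size. For progenitor against niche, 983 were called, against 1839 by library size (1525 higher), 543 with the 2 groups alone, 1993 without those 2 libraries and 543 to 1668 with a library left out. Pathway genes called were 41 (24 to 45 with a library left out, the lowest without stem replicate 2), 13 (10 to 16) and 21 (16 to 36, and 35 without those 2 libraries, the highest without niche replicate 1). Of these, 24, 7 and 15 kept their call in all 20 alternatives. With an arm cut to 3 libraries, the remaining spread is shared with the other groups. The cause of these shifts was not tested.

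The series' design text says that 3 populations came from each of 4 replicates, without saying what a replicate is. Libraries with the same replicate number shared little of their deviations: 2 of 12 pairs had a correlation over 0.1 (range -0.13 to 0.21). Still, 6 of 12 libraries correlated best with their own number, and the progenitor and niche pairs were all positive, at 0.03 to 0.21. With a replicate block 616, 1828 and 949 genes were called in the 3 comparisons. Depth limits Siglech in progenitor replicate 1, with 9 reads.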
